A study of Mus musculus with 6 samples.

Results

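The cytosolic ribosomal protein genes encode the protein part of the ribosomes that translate nuclear messenger RNA. They were taken by symbol (names of the form Rpl, Rps or Rplp followed by a number), with the ribosomal S6 kinases left out. Of 85 such genes among the 32285 genes listed, 82 had at least 100 unique molecular identifiers (UMIs, each one a counted RNA molecule) over all libraries and are the members described here. They comprised 43 genes of the large subunit, 30 of the small subunit, the 3 stalk genes *Rplp0*, *Rplp1* and *Rplp2*, 5 related copies that carry a longer symbol (*Rpl22l1*, *Rps27l*, *Rps27rt*, *Rpl36al* and *Rpl7l1*) and *Rps19bp1*, which by its name binds a ribosomal protein and is not one. The 3 genes under the minimum were *Rpl39l* with 25 UMIs, *Rpl3l* with 3 and *Rpl10l* with 0.

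The study sequenced single jejunal epithelial cells of male Wildtype C57BL/6J mice about 30 weeks old, after a dietary intervention of 16 weeks and 5 weeks after surgery, with 10x Genomics 3′ chemistry. There were 3 groups, namely a low-fat diet with sham surgery (LFD sham), a high-fat diet with sham surgery (HFD sham), and a high-fat diet with vertical sleeve gastrectomy (HFD VSG), an operation that removes most of the stomach along its greater curvature. Each group gave 1 crypt-labelled and 1 villus-labelled library. Each library pooled 3 mice (LFD sham, HFD sham) or 2 mice (HFD VSG), so no group had a replicate library and no test between groups was possible. The study separated crypts and villi from the same jejunal segments, so the crypt-labelled and villus-labelled libraries of a group are not independent. All intervals below are 95% intervals that cover counting error only.

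A ribosome holds most of its proteins in equal number, and their genes are expressed together from compact mRNAs that begin with a run of pyrimidines (the 5′ TOP element) through which translation of the whole family follows the mTOR pathway. In the intestine, stem and progenitor cells at the crypt base divide and grow, whereas enterocytes on the villus are short-lived absorptive cells and Paneth, goblet, tuft and enteroendocrine (EEC) cells are secretory or sensory. Ribosomal protein mRNA is usually abundant in growing cells.

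Called cell barcodes held 60522766 to 155522445 UMIs per library, and 2844 to 4616 cells per library passed the filters. The libraries shared 17 to 43 barcodes pairwise, at most 0.450% of the smaller one. Cells were clustered without the ribosomal protein genes and named from markers of each cell type. All markers of each named class were found in at least 10% of its cells in every library. The labels of the fractions went against the cells in them: stem-like, cycling progenitor-like and Paneth-like cells together made up 3.99% to 6.11% of the crypt-labelled and 12.2% to 21.3% of the villus-labelled libraries. The HFD VSG villi library stood apart: it was the deepest, and its members made up 22.3% of the UMIs in passing cells, against 4.41% to 10.7% in the other 5. Its own values are therefore given apart from those of the other 5 in many results below. In the HFD sham crypts, 18 EEC-like and 13 tuft-like cells were too few for comparisons between groups, and 9 immune-like cells were found in the HFD sham villi.

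The starts of a few members show how far the 5′ TOP element can be read from their annotated start sites. RefSeq promoter windows of build GRCm38.p6 were found for 62 of the 82 members (73 windows). Each line gives 15 bases before and 15 bases from the annotated start site, with a run of C and T in capitals, the longest that held the start site, ended at most 3 bases before it or began at most 2 bases after it (the first where runs are equal, as in *Rps27rt*). *Rpl12* and *Rpl14* were among the 3 members with the largest excess in stem-like cells, and *Rps27l* and *Rpl36al* had the smallest. *Rps27* and *Rps27rt* are a gene and its retrogene copy, and *Rplp2* is a stalk gene. *Rpl35* and *Rpl27* were picked out afterwards for values that differed between libraries.
Rpl12 (chr2:32961697-32961726, + strand): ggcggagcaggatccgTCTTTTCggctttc
Rpl14 (chr9:120571502-120571531, + strand): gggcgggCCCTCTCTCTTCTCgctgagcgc
Rplp2 (chr7:141447636-141447665, + strand): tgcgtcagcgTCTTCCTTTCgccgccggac
Rps27 (chr3:90213634-90213663, - strand): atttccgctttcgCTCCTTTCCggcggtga
Rps27rt (chr9:114982725-114982754, - strand): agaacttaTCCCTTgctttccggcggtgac
Rps27l (chr9:66946071-66946100, + strand): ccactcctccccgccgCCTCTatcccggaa
Rpl36al (chr12:69184053-69184082, - strand): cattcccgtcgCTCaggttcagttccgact
Rpl35 (chr2:39005117-39005146, - strand): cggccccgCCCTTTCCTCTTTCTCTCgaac
Rpl27 (chr11:101442230-101442259, + strand): acgctctgTTCCTgtctgctgctcgtgctg
Such a run of at least 8 pyrimidines was found in 28.8% of the members' windows and in 7.43% of all 32851 windows, so most members' windows, such as that of *Rpl36al*, did not hold one. The letters CTTTC on the gene's strand, from 15 bases before to 20 bases after the start, were found in 23.3% against 4.69%. CCGGAAG, the core bound by ETS factors, read on both strands of the whole window, was in 34.2% against 8.86%, and TATAAA on the gene's strand, 40 to 10 bases before the start, was in 1.37% against 2.08%. A match of letters is a description of the window and not a binding site.

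Members took the largest part of the transcriptome in stem-like cells (*Lgr5*, *Olfm4*). There they made up 23.1% [23.0, 23.2] of UMIs for LFD sham, 21.0% for HFD sham and 25.4% for HFD VSG among the crypt-labelled libraries, and 22.8%, 22.2% and 32.6% among the villus-labelled ones in the same order. The first 5 libraries lay close together and the last one above them. The leading genes of the stem-like cluster also included *Uhrf1*, *Dtl* and *Mcm3*, which are active in DNA replication. The class was therefore not shown to be free of dividing cells. Cycling progenitor-like cells were the next, with 18.8% to 21.3% in 5 libraries and 27.6% in the HFD VSG villi. An unnamed cluster led by *Dmbt1*, *Gsdmc4* and *Fgfbp1*, in which no class had over 50% of its markers, followed with 15.1% to 19.3%, and 27.5% in the HFD VSG villi. These 3, and goblet-like and tuft-like cells after them, came in the same order in all 6 libraries by summed UMIs. By the median cell, goblet-like cells were below tuft-like cells in the LFD sham crypts (2.97% and 4.46%) and the HFD sham crypts (2.25% and 5.86%).

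Among secretory lineages, goblet-like and tuft-like cells came between these and enterocyte-like cells in all 6 libraries, EEC-like cells were above enterocyte-like cells in 4, and Paneth-like cells were below them in all 6. Goblet-like cells, which make mucus, held 10.0% to 15.7% and 24.3% in the HFD VSG villi. Tuft-like cells, chemosensory cells, held 10.2% to 13.1% and 22.5%, and hormone-producing EEC-like cells held 4.85% to 9.57% and 12.3%, beside 7.39% and 2.60% in the few such cells (13 and 18) of the HFD sham crypts. Within goblet-like cells the shallower cells of the LFD sham crypts held 1.73% and the deeper ones 13.2%, so the cells of this class differed among themselves. Paneth-like cells, which secrete antimicrobial peptides, had the lowest share of summed UMIs in every library, 1.90% to 2.78% and 3.38%. Their own secretory and marker transcripts took 72.3% to 79.6% of UMIs, and of what remained members were 6.99% to 15.6%. For enterocyte-like cells only the listed markers were left out, a narrower set that took 5.30% to 9.37% of UMIs, and members were 3.23% to 18.5% of the rest. Measured so, Paneth-like cells were above enterocyte-like cells in every library but the HFD VSG villi. In the HFD sham villi the 2 classes were close (7.01% and 6.96%), and the unequal sets limit this comparison. By the median cell, too, Paneth-like cells of the LFD sham crypts (1.92%) were above enterocyte-like cells (1.55%), so the place of this class depended on the measure.

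Enterocyte-like cells (*Sis*, *Apoa1*, *Fabp1*) held 2.95%, 3.96% and 5.17% in the LFD sham, HFD sham and HFD VSG crypts, and 6.43%, 6.43% and 17.5% in the villus-labelled libraries in that order. The share in stem-like cells was 7.82, 5.32 and 4.91 times that of enterocyte-like cells in the crypt-labelled and 3.54, 3.45 and 1.87 times in the villus-labelled libraries. The ratio was above 1 in all 6, with the smallest contrast in the HFD VSG villi. The median of the 6, 4.23, was 7.21 with doublets kept and 2.87 without cells over 10% mitochondrial UMIs. With doublets kept the cells were clustered and named anew, so the classes held other cells. Enterocyte-like cells were close to the droplets with fewer than 100 UMIs, which hold free RNA: those had 3.02%, 3.02%, 5.52%, 7.59%, 6.08% and 21.2% members in the same order, and enterocyte-like cells 0.824 to 1.31 times as much. Stem-like cells had 3.00 to 7.65 times the free RNA's share in 5 libraries and 1.54 times in the HFD VSG villi.

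**Figure D1:**
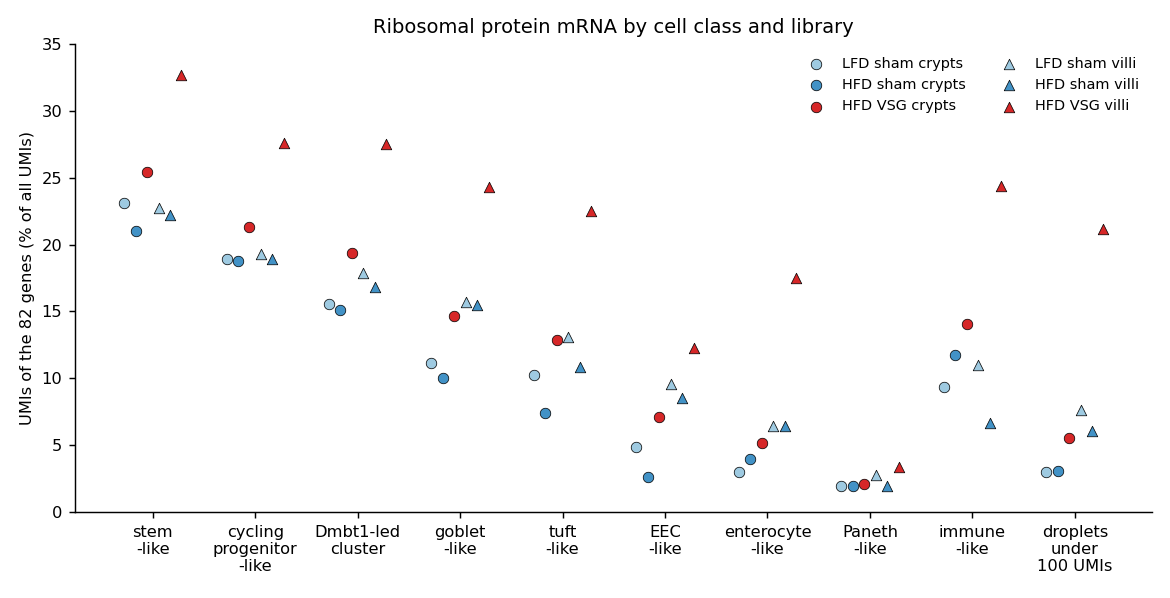
Percent of all UMIs that came from the 82 genes (y axis) in 9 cell classes and in droplets under 100 UMIs (x axis), 1 point per library; circles are crypt-labelled and triangles villus-labelled, with LFD sham in light blue, HFD sham in blue and HFD VSG in red. Stem-like cells are the highest class in each library, and the HFD VSG villi is the highest library in each class, free RNA included.

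Enterocyte-like clusters differed among themselves. The cluster led by *Ly6m*, *Clca4a* and *Ada*, the last of which encodes the villus tip enzyme adenosine deaminase, was the lowest of all clusters with at least 20 cells in all 6 libraries, at 0.875%, 1.19%, 1.53%, 1.29%, 1.31% and 2.84% in the order above. Against it the stem-like cluster was 11.5 to 26.4 times as high. A lipid-exporting cluster led by *Apoc2* and *Apoc3* held 1.71% to 2.82% in 5 libraries and 6.01% in the HFD VSG villi, and one led by *Fabp6*, the ileal bile acid binder, 2.69% to 5.90% and 14.9%. A pair of clusters led by *Gsta1* and the antimicrobial lectin *Reg3a* held 4.54% to 8.81% and 5.12% to 9.30% in 5 libraries, and 18.4% and 21.4% in the HFD VSG villi. One enterocyte-like cluster, led by *Plb1* and *Nos2*, had at least 25.8% of its UMIs from genes that overlap ribosomal RNA or mark damaged droplets (*Gm42418*, *Gm26917*, *Lars2*, *AY036118*) in the 4 sham libraries and 3.20% and 3.72% in the VSG libraries. Its members' share was 1.40% to 3.16% in the sham and 4.62% and 15.6% in the VSG libraries. The part of damage in the share of this cluster was not tested.

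**Figure D2:**
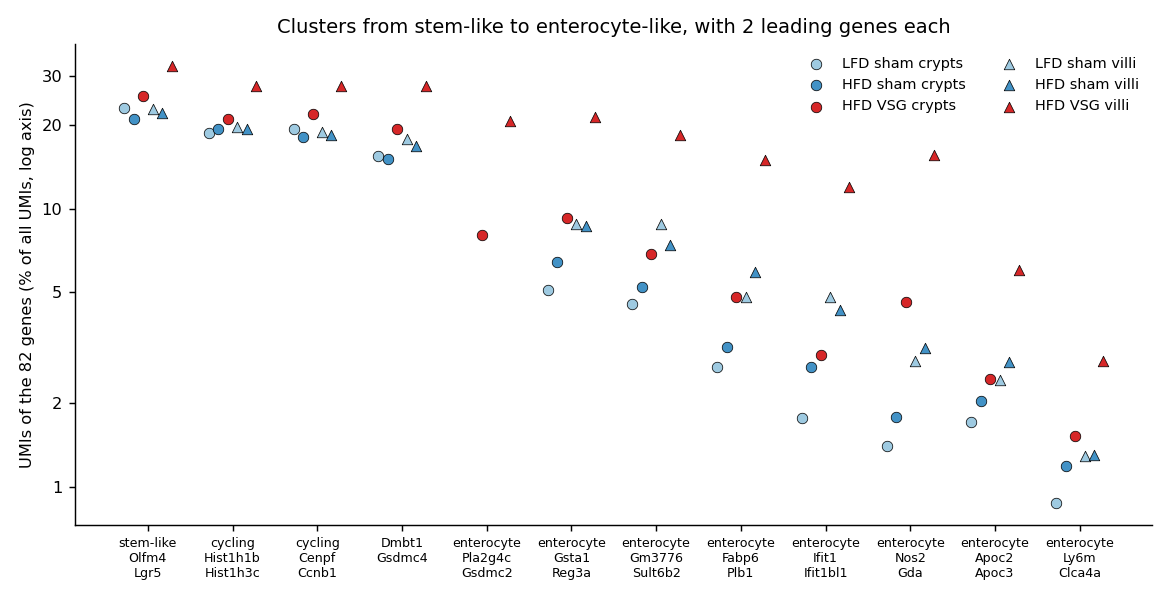
Percent of all UMIs that came from the 82 genes (y axis, log scale) in 12 clusters ordered by their median and labelled by class and 2 leading genes (x axis), 1 point per library with at least 20 cells, with symbols as in the plot by cell class. From left to right the share goes from 21.0% to 32.6% in the stem-like cluster to 0.875% to 2.84% in the cluster led by Ly6m, Clca4a and Ada.

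Gene by gene, all 82 members were higher in stem-like than in enterocyte-like cells in all 6 libraries, where 47.9% of the 9709 genes with a mean of 50 UMIs were. With median-of-ratios scaling the count was 81. A log2 ratio of CPM (a gene's UMIs scaled to one common total per class and library) above 0.5 in every library was found for 79 members, against 31.8% of all genes. The median over libraries was 2.06 for the typical member and 0.40 for all genes. Small-subunit genes had a median of 2.15, large-subunit genes 2.00, the stalk genes 2.07 and the related copies 1.49. Against the *Ada*-led cluster the median member was 4.13 higher, and all 82 were higher in every library, against 50.8% of 6116 genes. As that cluster had the lowest share of members and the stem-like cluster the highest, this count adds no support.

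Both subunits followed the same course. For this ratio the large subunit included the stalk genes, both subunits included the related copies of their name, and only *Rps19bp1* was left out. UMIs of large-subunit genes so taken were 1.25 to 1.28 times those of small-subunit genes in stem-like cells. They were 1.30 to 1.37 times in enterocyte-like cells and 1.33 to 1.43 times in EEC-like cells, the last without the HFD sham crypts, whose 18 cells gave 1.61. The ranges of stem-like and enterocyte-like cells did not overlap. The stalk genes, whose acidic proteins recruit elongation factors, had ratios close to the rest. *Rplp1* was at 5017, 4529, 5217, 4871, 4943 and 7517 CPM in stem-like cells of the LFD sham, HFD sham and HFD VSG crypts and then villi. In enterocyte-like cells it was at 682, 913, 1151, 1459, 1463 and 4113 CPM, below the stem-like cells of every library. The median log2 ratio was 1.97 for *Rplp1*, 2.07 for *Rplp0* and 2.22 for *Rplp2*.

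*Rpl12*, whose protein sits at the base of the stalk, had the largest contrast. It was at 3601, 3505, 4161, 3411, 3247 and 4851 CPM in stem-like cells, a range within which the first 5 libraries differed little. In enterocyte-like cells it was at 178, 284, 409, 643, 563 and 1924 CPM, lowest in the LFD sham crypts and highest in the HFD VSG villi, so that the contrast varied mainly through the enterocyte-like cells. Its median log2 ratio was 2.94, from 1.33 in the HFD VSG villi to 4.34 in the LFD sham crypts. *Rpl3*, a protein of the large subunit's catalytic side, followed with 2.75, and *Rpl14* with 2.60. *Rpl13* and *Rps12* were among the members with the highest levels in stem-like cells, with medians of 6717 and 5702 CPM. These levels count each mRNA once at its 3′ end, so they do not grow with transcript length.

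At the other end, *Rps27l* had the smallest contrast, with a median log2 ratio of 0.45, from 0.34 to 0.99 in 5 libraries and 0.10 in the HFD VSG villi. It was at 417, 349, 436, 402, 413 and 569 CPM in stem-like cells and at 210, 276, 325, 257, 298 and 529 CPM in enterocyte-like cells. Next came *Rpl36al* (1.18, from 0.91 to 1.84 and 0.28 in the HFD VSG villi) and the X-linked *Rpl10* (1.44, from 1.08 to 1.96 and 0.54), whose protein joins the large subunit last. The 3 members under 0.5 in at least 1 library were related copies, *Rps27l*, *Rpl36al* and *Rpl7l1*, as seen after the values were known. Without the HFD VSG villi *Rps27l* alone remained, and 81 members were above 0.5 in all 5 libraries, against 37.4% of all genes.

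**Figure D3:**
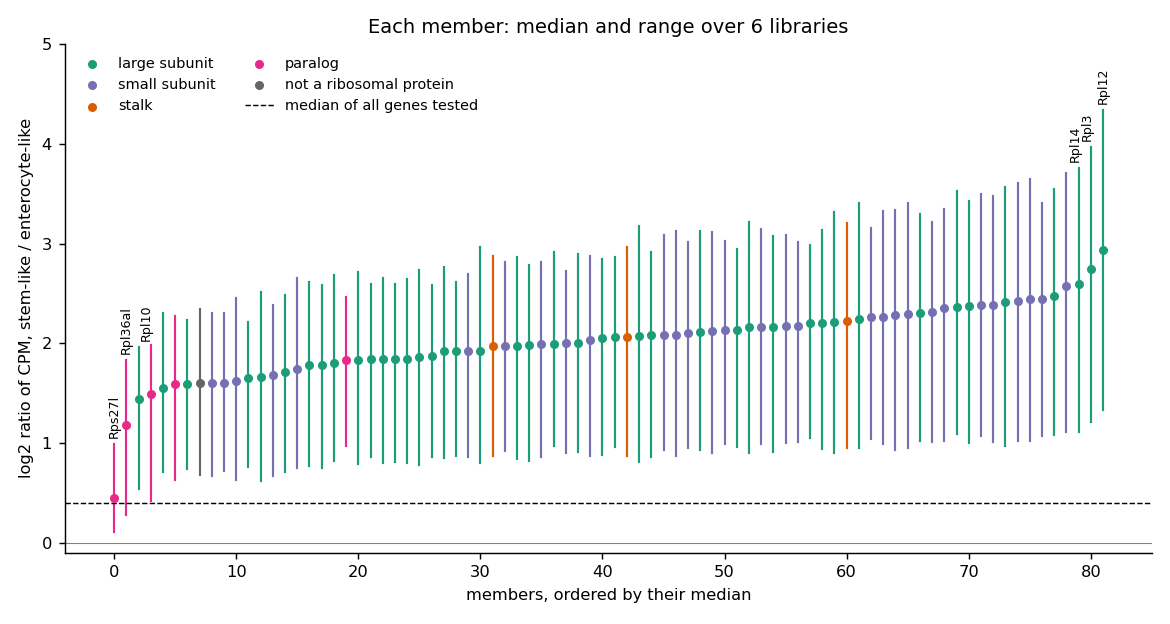
Log2 ratio of CPM between stem-like and enterocyte-like cells (y axis) for each of the 82 members ordered by their median (x axis); points are medians and lines the range over 6 libraries, coloured by subunit, and the dashed line is the median of all genes tested, 0.40. Every line lies above 0, with Rps27l (0.45) lowest and Rpl12 (2.94) highest.

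*Rps27l* and *Rpl36al* did not keep a fixed ratio to their parent genes. *Rps27l*, a p53-inducible relative of *Rps27*, made up 19.6% to 22.9% of the UMIs of both genes in stem-like cells. In enterocyte-like cells it made up 39.1% [38.5, 39.8], 43.6% and 40.2% in the crypt-labelled and 32.2%, 35.7% and 26.6% in the villus-labelled libraries, above stem-like cells in every library. Paneth-like cells had the largest part, 41.5% to 55.4%, and immune-like cells the smallest, 5.90% to 15.2%. Free RNA held 25.1% to 42.7%, close to the 26.6% to 43.6% of the enterocyte-like cells. *Rpl36al* made up 31.9% to 35.6% of the UMIs of *Rpl36al* and *Rpl36a* in stem-like, 45.1% to 61.1% in enterocyte-like and 48.2% to 67.2% in EEC-like cells, without the few EEC-like cells of the HFD sham crypts. Immune-like values likewise leave out the HFD sham villi.

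*Rpl22l1*, the relative that can replace *Rpl22*, was steadier, at 29.6% to 30.8% of both genes in stem-like and 29.4% to 39.3% in enterocyte-like cells. *Rpl7l1*, a nucleolar factor named for its likeness to *Rpl7*, made up 2.26% to 4.50% and 3.05% to 5.72%. The retrogene *Rps27rt* was at 4.81% to 8.80% of itself and *Rps27* in stem-like and at 4.93% to 8.38% in enterocyte-like cells, ranges that overlapped. Its values are uncertain because reads of near-identical genes can be split or dropped in counting. Named pseudogene copies were listed for 59 members, up to 24 for 1 gene, and make those counts uncertain in the same way. Of the genes under the minimum, *Rpl39l* had 9 UMIs in 14682 enterocyte-like and 10 in 1291 immune-like cells and 0 in 1029 stem-like cells.

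Other genes of translation were examined from lists. Of all 9709 genes tested, 47.9% were higher in stem-like than in enterocyte-like cells in all 6 libraries, with a median log2 ratio of 0.40. Of 20 other genes with a 5′ TOP start, most of which encode other ribosomal proteins or elongation, initiation and ribosome-bound factors, 19 were higher in stem-like than in enterocyte-like cells in all 6 libraries, with a median log2 ratio of 1.94. *Nap1l1* (8.09), a histone chaperone, and *Npm1* (3.58), nucleophosmin, were highest and *Fau* (0.22) and *Tpt1* (0.70) lowest. All 8 non-coding hosts of small nucleolar RNAs, such as *Snhg5* (3.75) and *Gas5* (3.43), were higher, with a median of 2.54 and *Epb41l4aos* (1.82) and *Snhg8* (1.95) lowest. So were all 30 ribosome biogenesis genes, with a median of 4.18, led by *Myc* (6.94) and *Gar1* (6.08), with *Bop1* (1.11) and *Ubtf* (1.51) lowest. Of 22 translation initiation genes, 18 were higher in every library, led by *Eif3g* (2.31) and *Eif3a* (2.03), and 1 was lower in every library, with *Eif6* (-0.47) and *Eif4a2* (0.08) lowest. The 78 mitochondrial ribosomal protein genes tested had a median of 1.10. Of the 4 genes of damaged droplets, 1 was higher and 2 were lower in every library, with a median of -0.36, from *Gm42418* (-0.61) and *Lars2* (-0.44) to *AY036118* (-0.28) and *Gm26917* (1.04).

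Between diets, members had ratios near 0 in stem-like and cycling progenitor-like cells. From LFD sham to HFD sham the median log2 ratio of members was -0.13 in stem-like cells of the crypt-labelled and -0.04 of the villus-labelled libraries, beside -0.02 and 0.02 for all genes. Cycling progenitor-like cells had -0.01 and -0.03. Over the alternatives the crypt-labelled values ran from -0.22 to 0.17 in stem-like and from -0.06 to 0.27 in cycling progenitor-like cells, so their sign was not settled. Enterocyte-like cells of the crypt-labelled libraries had 0.42, beside 0.01 for all genes. All 82 members were above 0 there, from *Rpl10* (0.07), *Rpl38* (0.09) and *Rps29* (0.12) to *Rps18* (0.69), *Rpl12* (0.67) and *Rps19* (0.64). The share of all genes above 0 was not counted. By more than 0.5, 19 members were up, beside 596 of all 9987 genes. The makeup of this class differed, with 9.25% of its cells in the second of the *Gsta1* clusters, the higher of that pair in share, in LFD sham and 15.2% in HFD sham, and over 7 enterocyte-like clusters the ratio of shares was 1.16 to 1.53. Within these clusters the members' median log2 ratio was 0.22 to 0.54. In the villus-labelled libraries enterocyte-like cells had 0.01, which joined clusters at -0.24 (the first *Gsta1* cluster) and at 0.30 (*Fabp6*), with members from *Rpl12* (-0.19), *Rplp2* (-0.14) and *Rpl3* (-0.14) to *Rps27rt* (0.28), *Rps27l* (0.21) and *Rpl7a* (0.18). Paneth-like cells had 0.01 in the crypt-labelled and -0.55 in the villus-labelled libraries, beside -0.08 and 0.17 for all genes. The share in Paneth-like cells of the latter was 2.78% [2.77, 2.79] in LFD sham and 1.90% [1.89, 1.92] in HFD sham, but the median cell held 1.69% and 1.53%. Of the LFD sham cells, those with more mitochondrial UMIs held 4.88% and those with fewer 1.80%. Genes of damaged droplets made up 1.21% of this class in LFD sham but 3.41% in HFD sham, and its median cell had 46025 and 7158 UMIs. The part of these in the difference was not tested.

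Both comparisons below use the HFD sham libraries, for which the study estimated larger fractions of free RNA than for any other library. Counted as pairs of a member and a class with at least 20 cells in each library and a mean of 50 UMIs, 21 of 487 were up and 4 were down by more than 0.5 from LFD to HFD sham in the crypt-labelled libraries, beside 6.40% up and 7.00% down over all genes. The balance was not stable: with doublets kept 7 were up and 47 down, and with free RNA subtracted at the study's fractions 56 were up and 47 down. Keeping doublets also changed which clusters were named, and so the cells in each class. Of the 21, 19 were in enterocyte-like cells, where 596 of all 9987 genes were up. Among 649 pairs of the villus-labelled libraries 0 were up and 58 were down, beside 6.03% and 6.79%. Of the 58, 53 were in Paneth-like cells, where 290 of all 3286 genes were down and 738 were up. With doublets kept, 8 were down. In stem-like cells of the crypt-labelled libraries the lowest were *Rpl35* (-0.63 [-0.80, -0.47]), *Rps29* (-0.49) and *Rps28* (-0.42) and the highest *Rps27rt* (0.24), *Rps10* (0.03) and *Rpl9* (0.03). Villus-labelled libraries ran from *Rpl7l1* (-0.17), *Rpl31* (-0.16) and *Rpl10* (-0.16) to *Rps27rt* (0.23), *Rps19bp1* (0.15) and *Rpl27* (0.08).

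In HFD VSG, members took a larger share than in HFD sham in the counts as deposited. This held in all 8 classes of the crypt-labelled and all 9 of the villus-labelled libraries with at least 20 cells in both groups, counting immune-like and unnamed cells, and in all 15 and 16 such clusters. With free RNA subtracted, the members' median log2 ratio went below 0 in 4 cases: at the fractions the study used, in crypt-labelled stem-like (-0.03) and cycling progenitor-like cells (-0.09), and at a fraction of 0.1, in crypt-labelled (-0.11) and villus-labelled Paneth-like cells (-0.03). In the crypt-labelled libraries the ratio of shares was 1.21 in stem-like, 1.14 in cycling progenitor-like, 1.28 [1.27, 1.29] in *Dmbt1*-led, 1.46 in goblet-like, 1.08 in Paneth-like and 1.31 in enterocyte-like cells. Among villus-labelled libraries it was 1.47, 1.46, 1.64, 1.57, 1.78 and 2.72 in the same order, with 2.08 in tuft-like and 1.44 in EEC-like cells. Over 7 enterocyte-like clusters the ratio was 2.13 to 4.96 in the villus-labelled and 1.11 to 2.59 in the crypt-labelled libraries, the largest of either in the cluster led by *Plb1* and *Nos2*.

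The higher share was also seen in cells that are not epithelial. Immune-like cells of the HFD VSG villi held 24.4% members (429 cells), against 9.31% to 14.1% in the 4 other libraries with at least 20 such cells, and free RNA held 21.2%, against 3.02% to 7.59% in the other 5. Genes of damaged droplets were lower in both VSG libraries, at 0.938% and 1.54% of UMIs in passing cells against 4.70% to 8.28% in the 4 sham libraries. Mitochondrial transcripts were at 7.77% in the HFD VSG villi and at 9.61% to 12.5% in the other 5. The median stem-like cell had 9704 UMIs of members and 19695 of other genes in the HFD VSG villi, against 2322 to 3850 and 8450 to 11529 in the other 5 libraries. When mitochondrial and damaged-droplet genes were left out of the totals, members were still 35.5% of stem-like UMIs in the HFD VSG villi and 25.1% to 28.3% in the other libraries. Surgery, the pool of mice and the library cannot be told apart, and the part of depth and damage in the higher share was not tested.

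As pairs of a member and a class, 65 of 487 were up and 1 was down by more than 0.5 from HFD sham to HFD VSG in the crypt-labelled libraries, beside 7.64% up and 4.42% down over all genes. Of the 65, 53 were in goblet-like cells, where 376 of all 3307 genes were up. Without cells under 1500 genes, 11 of all pairs were up. The goblet-like cells of these libraries were a mixture: the median cell held 2.25% members and 5557 UMIs in HFD sham and 14.1% and 10699 UMIs in HFD VSG, and the shallower and deeper cells held 2.26% and 12.3% in the former and 10.0% and 16.6% in the latter. The part of this mixture in the 53 was not tested. The members' median in stem-like cells of these libraries was 0.27. In the villus-labelled libraries 521 of 649 were up and 0 were down, beside 12.7% and 29.5%. All genes had medians from -0.38 (Paneth-like cells) to 0.05 (enterocyte-like cells) in this comparison. The members' median was 0.56 in stem-like cells and lay 0.83 above that of all genes, and in enterocyte-like cells it was 1.44 and lay 1.39 above. All 82 members were up by more than 0.5 in enterocyte-like cells, 50 in stem-like and 50 in cycling progenitor-like cells. Of all genes, 26.1%, 6.93% and 506 of 8800 were, in the same order.

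**Figure D4:**
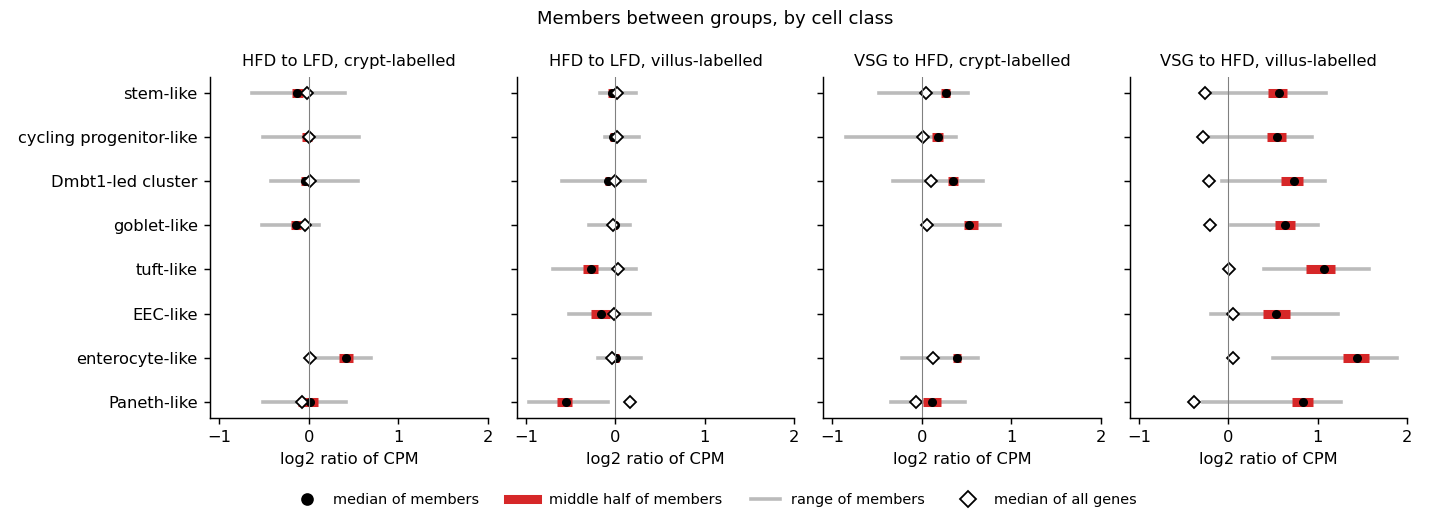
Log2 ratio of CPM (x axis) from LFD sham to HFD sham (2 left panels) and from HFD sham to HFD VSG (2 right panels) in 8 cell classes (y axis); grey lines span the members, red bars the range from their first to their last quartile limit, black points their median and diamonds the median of all genes. Members lie furthest right in enterocyte-like cells of the villus-labelled libraries after VSG (1.44), and classes with under 20 cells in a library are left blank.

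Other genes of translation were compared in the same way. In villus-labelled enterocyte-like cells after VSG, where 26.1% of all genes were up by more than 0.5, 17 of 20 other 5′ TOP genes were up by more than 0.5 (median 0.91), 7 of 8 hosts of small nucleolar RNAs (1.16), 26 of 30 ribosome biogenesis genes (0.99) and 9 of 22 initiation genes (0.39), and mitochondrial ribosomal protein genes had a median of 0.85. In stem-like cells, where 6.93% of all genes were up and 33.8% down, the lists differed: 5 of 20 TOP genes were up (0.27), 5 of 8 hosts (0.70) and 2 of 30 biogenesis genes, of which 13 were down (-0.43). In that class the members' median of 0.56 stood beside 0.29 for 130 other genes at 500 CPM or more and -0.39 for genes with transcripts over 1000 bases. Other genes with transcripts up to 1000 bases had -0.08 (3361 genes), and 0.36 when also at 500 CPM or more (92 genes). Members are short too, with a median of 628 bases. In villus-labelled enterocyte-like cells, where the members' median was 1.44, other genes at 500 CPM or more had 0.01 (209 genes), and the short ones among them 0.14 (143 genes). The part of length and level in the members' values was not tested. In crypt-labelled enterocyte-like and stem-like cells TOP genes had medians of 0.30 and 0.23 with 0 of 19 and 0 of 20 up by more than 0.5, beside 6.78% and 5.48% of all genes, and 0 down, beside 2.11% and 3.95%.

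Some members differed from the members' median by more than counting error after VSG, and also between diets. After VSG, the intervals of 10 of 82 members held the members' median in enterocyte-like and 18 of 82 in stem-like cells of the villus-labelled libraries. In the crypt-labelled libraries 28 of 82 and 56 of 80 did. From LFD to HFD sham the counts were 32 of 82 and 57 of 82 in the villus-labelled libraries. They were 26 of 82 and 57 of 80 in the crypt-labelled ones. These intervals cover counting error only, and their width differed between classes, so the counts do not measure how far members differed. After VSG the median width was 0.041 in enterocyte-like and 0.095 in stem-like cells of the villus-labelled libraries. The range from the members' first to last quartile limit was 0.29 and 0.22 there. In enterocyte-like cells this range was larger than the median width in each comparison. In stem-like cells of the other comparisons it was smaller. No like count was made over all genes. *Rpl27*, which encodes a large-subunit protein, was lower where most members were higher: in stem-like cells its log2 ratio from HFD sham to HFD VSG was -0.48 [-0.59, -0.36] in the crypt-labelled and -0.14 [-0.20, -0.07] in the villus-labelled libraries. In enterocyte-like cells it was -0.23 and 0.75, the latter 0.69 below the median member. As a part of all member UMIs it made up 0.432% to 0.531% in both VSG libraries over 5 classes (stem-like, cycling progenitor-like, *Dmbt1*-led, goblet-like and enterocyte-like) and 0.643% to 0.813% in the 4 sham libraries. Free RNA gave 0.389% and 0.505% against 0.650% to 0.804%. *Rpl27* was picked out after all members were compared, as the 1 member whose part did not overlap between VSG and sham libraries. The other 81 overlapped. How many of all genes would set these libraries apart was not counted, and the VSG libraries are not independent of each other.

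*Rpl35* and *Rpl4*, also picked out after all members were compared, differed between other sets of libraries. The part of *Rpl35* was 0.332% to 0.399% in the HFD sham and HFD VSG crypts over the same classes. It was 0.409% to 0.533% in the other 4 libraries. How many members would set apart some such set of libraries was not counted. *Rpl4* was lowest in the HFD VSG villi, at 0.549% to 0.606% against 0.697% to 0.904% elsewhere, and *Rpl10* had the highest ratios in stem-like cells from HFD sham to HFD VSG, with log2 ratios of 0.52 [0.40, 0.64] and 1.09 [1.02, 1.16].

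**Figure D5:**
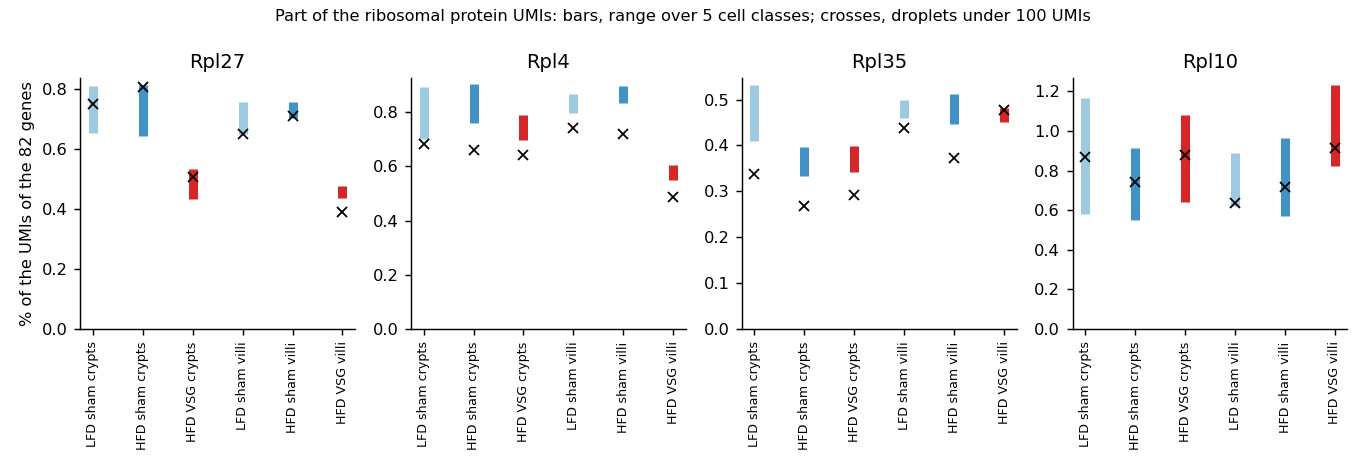
Part of all UMIs of the 82 genes that came from Rpl27, Rpl4, Rpl35 and Rpl10 (y axes, percent) in each library (x axes); bars span 5 cell classes and crosses are droplets under 100 UMIs. Rpl27 is at 0.432% to 0.531% in both VSG libraries and at 0.643% to 0.813% in the 4 sham libraries. Rpl27, Rpl4 and Rpl35 were picked out after all members were compared.

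Further extremes were found from HFD sham to HFD VSG. In stem-like cells of the crypt-labelled libraries *Rps27rt* (-0.33) and *Rpl5* (0.03) followed *Rpl27* at the low end, and *Rpl14* (0.43) and *Rpl30* (0.42) followed *Rpl10* at the high end. Among villus-labelled libraries *Rpl7l1* (-0.30) and *Rps27rt* (-0.09) were low, and *Rps26* (0.86) and *Rps15a* (0.82) were high. In enterocyte-like cells the low end was *Rpl7l1* (-0.02) and *Rps27rt* (0.10) beside *Rpl27* in the crypt-labelled and *Rpl7l1* (0.50) and *Rpl4* (0.80) in the villus-labelled libraries. The high end included *Rpl10* (0.63) and *Rpl12* (0.53) in the crypt-labelled libraries, and held *Rps21* (1.89), *Rps15a* (1.84) and *Rpl14* (1.79) in the villus-labelled ones.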

How the data were processed

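The authors aligned the reads and counted UMIs per gene and droplet with Cell Ranger (6.0.0) on mm10, per the submitters' processing notes, and deposited whole-number counts for 6 libraries of jejunal epithelium (1 for each of 3 groups and 2 fractions). Cells with at least 750 genes and at most 20% mitochondrial UMIs were kept, doublets were removed by simulated neighbours, and the cells were normalised (sctransform 0.4.2) and clustered in Seurat (5.3.0, R 4.3.3) with 2000 variable genes, 30 components and a resolution of 0.4, without the ribosomal protein genes. Clusters were named where over 50% of a class's markers were enriched, and left unnamed where classes scored alike, where another class or damaged-droplet genes led, or where cells were shallow and no marker was among the 10 leading genes. Counts were summed per class and library and scaled to CPM in Python 3.11.15 with pandas 2.3.3, and exact intervals came from SciPy 1.17.1. Droplets with fewer than 100 UMIs gave the profile of free RNA. Genes with a mean of 50 UMIs were tested for a log2 ratio beyond 0.5. With 1 library per group there was no test and no p-value. The calculation was tested on simulated data. The members and lists were chosen with earlier results of these data known. The text names the 3 members highest and the 3 lowest in each comparison in stem-like and enterocyte-like cells, and others as said, and some named by this rule are not reported here. Alternatives covered cell filters, doublets, clustering, totals, scaling, free RNA, cell weights, thresholds and left-out libraries. Promoter windows came from RefSeq (GRCm38.p6). Protein sequences were not used here.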

Additional observations from a re-analysis of the deposited data

Results flagged for a closer look

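The members' median log2 ratio from LFD sham to HFD sham in Paneth-like cells had opposite signs in the fractions, at 0.015 in the crypt-labelled and -0.55 in the villus-labelled libraries. The difference was not tested. The crypt-labelled value had no settled sign: it was -0.63 to 0.15 over 10 alternatives, 2 of which changed its sign, and the ratio of shares was 1.01 [0.991, 1.04]. The villus-labelled value was -1.36 to -0.25 over 11 alternatives. *Rpl39l*, a relative of *Rpl39* under the minimum for membership, still had 25 UMIs in the called barcodes of all libraries. It was flagged because this was above 3, the floor to which smaller sums were set for log2 ratios.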

How the results depend on the processing

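No paired analysis was possible because each group was 1 library per fraction. All alternatives changed 1 choice, and the cause of each move was not tested. Of 82 members, 82 stayed higher in stem-like than in enterocyte-like cells in every library under each alternative that gave a value, except 81 with median-of-ratios scaling. Leaving out a library could not lower this count. With the ribosomal protein genes kept in clustering, stem-like cells shared a cluster with dividing cells and no cluster was named stem-like. That setting thus gave no value for stem-like cells. With doublets kept, clusters of 4162, 3097 and 2584 cells were left unnamed and one of 1685 cells was named Paneth-like. At resolution 0.8 a cluster of 1467 cells was named Paneth-like. The classes of these settings therefore held other cells than those of the main setting. The median ratio of shares between the classes, 4.23, was 2.87 without cells over 10% mitochondrial UMIs, 7.21 with doublets kept, 4.58 at resolution 0.8, 3.99 with totals free of mitochondrial and damaged-droplet genes, 3.24 with median-of-ratios scaling, 4.47 and 4.63 with free RNA subtracted at the study's fractions and at 0.1, 4.77 as the mean of cells' own CPM and 4.11 without the cluster rich in damaged-droplet genes. Without 1 library each it was 3.54 to 4.91. The left-out libraries and that cluster were chosen after seeing the data.

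Counts of pairs beyond the threshold moved as follows. From LFD to HFD sham in the crypt-labelled libraries, the 21 up and 4 down became 70 up (10% mitochondrial limit), 2 down (1500 genes), 7 up and 47 down (doublets kept), 2 up and 0 down (ribosomal protein genes in clustering), 8 up (resolution 0.8), 13 up (totals), 2 down (median-of-ratios), 56 up and 47 down (free RNA at the study's fractions), 32 up (free RNA at 0.1), 33 down (mean of cells' own CPM) and 0 up and 0 down (a log2 ratio beyond 1). In the villus-labelled libraries the 0 up became 1 with the mitochondrial limit and 1 with doublets kept, and the 58 down became 8 with doublets kept, 8 with the ribosomal protein genes in clustering, 10 at resolution 0.8 and 0 beyond 1. From HFD sham to HFD VSG in the crypt-labelled libraries the 65 up and 1 down became 124 up and 2 down (mitochondrial limit), 11 up (1500 genes), 159 up (doublets kept), 143 up and 2 down (ribosomal protein genes in clustering), 140 up (resolution 0.8), 25 up and 2 down (totals), 37 up and 2 down (median-of-ratios), 6 down and 5 down (free RNA at the study's fractions and at 0.1), 210 up (mean of cells' own CPM), 0 up and 0 down (beyond 1) and 0 down (a mean of 200 UMIs). In the villus-labelled libraries the 521 up became 144 beyond 1 and the 0 down became 12 with free RNA at 0.1. The members' median in Paneth-like cells from HFD sham to HFD VSG villi, 0.84, was reversed to -0.0335 with free RNA subtracted at 0.1. Of 28 class medians, 14 kept their sign under every alternative. The number of cells limited tuft-like, EEC-like and immune-like cells, each with under 20 cells in 1 library.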
